A study of Mus musculus with 10 samples.

Results

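The Groucho family of transcriptional corepressors was followed as 6 genes, Tle1, Tle2, Tle3, Tle4, Tle6 and Aes (also called Tle5), of 21101 genes measured by RNA sequencing in cultured mouse neural stem cells. The genes were taken by name from the expression table. The family was picked out because its chromosomal neighbours Tle2 and Tle6 were lower after differentiation in Atrx-deleted lines, so values in that contrast are described here and carry no test. The cells came in 4 groups of lines: Atrx-deleted cells after 8 days in differentiation medium (n = 3), Atrx-deleted cells in proliferation medium (n = 3), control cells after 8 days in differentiation medium (n = 2) and control cells in proliferation medium (n = 2). All lines, controls included, were p53-null and had been transduced with the mutant enzyme IDH1(R132H). ATRX is a chromatin remodeller that deposits a histone variant in heterochromatin and is often lost in gliomas that carry mutant IDH1. Proliferation medium held 20 ng/ml of EGF and bFGF, the growth factors that keep neural stem cells dividing. Differentiation medium was neural basal medium with B27 supplement and no growth factors. The Atrx-deleted lines were mA16d#4, mA19d#4 and mA19d#7, and the control lines were Control NSC#1 and Control NSC#2. Each line was sequenced in both media. The labels do not say whether a line is a clone or which lines share an animal, so p-values measure the spread between these lines. Control and Atrx-deleted libraries also carry different sample-code prefixes, so any difference in handling that goes with the prefix cannot be told apart from the genotype.

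Expression is given in TPM, a gene's share of all transcripts after correction for gene length and library size, which allows levels of different genes to be set side by side. The deposited values were also quantile-normalised, so that all libraries hold the same set of values. Levels, sums and shares below are therefore of normalised values and not exact shares of a library's transcripts. Fold changes are differences of group means on the log2(TPM + 1) scale, with standard errors (SE) and adjusted p-values from limma, a linear model fitted over 15660 expressed genes in all 10 libraries, with the Benjamini-Hochberg adjustment over all of them and a threshold of 0.05. Read depth is unknown, since the deposited values hold no counts. Atrx was lower in all Atrx-deleted libraries, at 42.8 to 74.0 TPM, than in the control libraries, at 127 to 163 TPM. All 8 neural stem cell markers were present in every library, with summed levels of 9952 to 13441 TPM, while microglial, endothelial and mesenchymal marker sums stayed at or under 11.3 TPM. The libraries of Atrx-deleted lines in differentiation medium resembled each other least, with rank correlations of 0.915 to 0.953, against 0.978 between the control lines in that medium. The mA19d#7 library in differentiation medium and the mA16d#4 library in proliferation medium were each other's closest match (rank correlation 0.957), and mA19d#4 in differentiation medium was closest to mA19d#7 in proliferation medium (0.960). The correlation of the mA19d#7 library in differentiation medium with its own line in proliferation medium, 0.926, was the lowest of the Atrx-deleted lines, and the main values that rest on that library are also given without it.

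Groucho proteins do not bind DNA themselves. The full-length members TLE1 to TLE4 assemble through a glutamine-rich amino-terminal region and are brought to genes by transcription factors, which dock on a WD40-repeat propeller at the carboxyl end. Hes and Hey repressors, Runx factors, TCF/LEF factors of the Wnt pathway and homeobox or forkhead factors recruit them, and they in turn bring histone deacetylases that close the local chromatin. In the embryonic mouse brain TLE1 acts with Hes1 to hold back neuronal differentiation of progenitors. Aes is a short member that lacks the WD40 repeats and is mostly regarded as an antagonist of the full-length proteins. Tle6 is a divergent member, known in mice for opposing repression by TLE1 in cortical progenitors and as a part of the subcortical maternal complex of the oocyte.

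Tle2, Tle6 and Aes lie in a row on mouse chromosome 10 (build GRCm38, positions from GENCODE M21). Aes (ENSMUSG00000054452) spans chr10:81559488-81566362 on the plus strand. Tle2 (ENSMUSG00000034771) starts 8198 bases further on and spans chr10:81574561-81590845 on the same strand. Tle6 (ENSMUSG00000034758) spans chr10:81590904-81601073 on the minus strand, so that Tle2 and Tle6 run towards each other and their annotated ends lie 58 bases apart. Their promoters are therefore at opposite ends of the pair. Tle1 (ENSMUSG00000008305, chr4:72117142-72200919, minus strand), Tle3 (ENSMUSG00000032280, chr9:61372366-61418497, plus strand) and Tle4 (ENSMUSG00000024642, chr19:14448150-14598051, minus strand) are on other chromosomes. Of the annotated exon bases of Tle2, 98 of 6221 overlap the antisense gene Gm15917, and 247 of 8711 in Tle1 overlap the antisense gene Gm11250. The strand setting of the counting is not given in the sources used here, so reads in these stretches cannot be assigned.

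The promoter stretches of Tle2 and Tle6 are shown because these neighbours had the most alike expression pattern of the family, and short stretches of Tle3 and Tle4 are shown for comparison because they hold the same motif as Tle6. All are from RefSeq (GRCm38.p6), lie upstream of the RefSeq start and leave out annotated untranslated bases. The starts of RefSeq and GENCODE differ: the RefSeq start lies 726 bases inside the GENCODE gene for Tle2, 173 inside for Tle6 and 26 inside for Tle1, before its start for Tle4, and at the same base for Tle3. The Tle2 stretch and the proximal Tle6 stretch therefore fall within the gene spans given above, and the 250 bases before the GENCODE start of Tle2 were not searched. They read 5′ to 3′ on the strand of the gene, and capitals mark CACGTG, the E-box core that Hey and other basic helix-loop-helix proteins can bind.
Tle2, chr10:81575037-81575261: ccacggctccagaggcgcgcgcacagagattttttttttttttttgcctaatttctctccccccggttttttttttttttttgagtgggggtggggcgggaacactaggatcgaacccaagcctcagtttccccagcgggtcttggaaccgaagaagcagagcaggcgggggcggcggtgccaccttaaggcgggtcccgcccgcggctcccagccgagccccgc
Tle6, distal stretch, chr10:81601074-81601150: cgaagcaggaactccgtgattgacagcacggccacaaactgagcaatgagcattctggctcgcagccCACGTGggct
Tle6, proximal stretch, chr10:81600901-81600978: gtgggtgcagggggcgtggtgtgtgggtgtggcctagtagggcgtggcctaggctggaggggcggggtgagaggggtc
Tle3, chr9:61372271-61372330: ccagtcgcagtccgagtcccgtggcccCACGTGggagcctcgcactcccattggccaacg
Tle4, chr19:14598361-14598420: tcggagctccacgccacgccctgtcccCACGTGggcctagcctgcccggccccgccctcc
RefSeq promoters were matched for 5 of the 6 genes, all but Aes. In the 250 bases upstream of the start, searched on both strands, CACGTG was found at positions -183 and -119 of Tle6, at -68 of Tle3 and at -210 of Tle4, counted from the start to the first base of the match. No CACGTG was found in the Tle1 or Tle2 window. Of all 32817 promoter windows of that length, 6.02% held the motif and 0.43% held it more than once. The N-box form CACNAG was found at position -148 of Tle2 and at -178 and -131 of Tle3, against 36.7% of all windows. Neither TGGGAA, the core of the Notch effector Rbpj (21.6% of all windows), nor CTTTGA, a TCF/LEF core (13.8% of all windows), was found in the 5 windows. The motif forms searched do not overlap in these windows. The Tle2 and Tle6 windows were 61.6% and 67.2% G or C, with 21 and 17 CpG dinucleotides, against medians of 52.4% and 6 over all windows.

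Tle6 and Tle2 fell in control lines when growth factors were withdrawn, and they headed the list of all genes by p-value in that comparison. Tle6 had 14.6 and 14.9 TPM in control lines in differentiation medium, against 144 and 135 TPM in control lines in proliferation medium, for Control NSC#1 and Control NSC#2 in that order. The groups were far apart, and within each line Tle6 was 9.89-fold and 9.09-fold lower in differentiation medium. The log2 change was -3.16 (SE 0.183, limma adjusted p = 0.000104), lower in 2 of 2 lines. Tle2 had 9.49 and 11.0 TPM in control lines in differentiation medium, against 79.0 and 74.9 TPM in control lines in proliferation medium. It was 8.32-fold and 6.80-fold lower within the lines, with a log2 change of -2.79 (SE 0.220, limma adjusted p = 0.000734), again lower in 2 of 2 lines. Among 15660 genes Tle6 ranked 1 and Tle2 ranked 2 by p-value, and 19 and 39 by the size of the fall. The spread in this test comes from all 10 libraries, and 6 of them are the Atrx-deleted ones on which these genes were chosen. The ranks by p-value are therefore not independent of that choice. In this comparison 4.51% of all genes passed the threshold in either direction and 2.56% did so as lower, and of the 6 family genes 2 passed, both lower. The median log2 change was -0.94 over the 6 family genes and -0.01 over all genes tested. In bulk RNA, fewer cells of a type that expresses a gene and less RNA of that gene per cell cannot be told apart. Markers of neural cell types moved in the same libraries. Nes, the stem cell intermediate filament, fell with differentiation in control lines (log2 change -1.15, limma adjusted p = 0.0262), the 1 of 8 stem cell markers that passed. Slc1a2 and Slc1a3, the glutamate transporters of astrocytes, rose (2.91 and 1.23, limma adjusted p = 0.0150 and 0.0370), 2 of 6 astrocyte markers. These 3 calls ended without any 1 of the 4 control libraries (adjusted p of 0.0563 to 0.297), with no filter on low values (0.0544 to 0.0884) and, for Nes and Slc1a3, with the line as a block (0.0665 and 0.0749). Slc1a3 also lost its call without mA19d#4 or mA19d#7 in proliferation medium (0.0645 and 0.0581). Of the 8 stem cell markers 5 had a positive and 3 a negative log2 change in control lines, with a median of 0.22. Their summed level was 13213 to 13441 TPM in control lines in differentiation medium and 9952 to 10813 TPM in proliferation medium. Of the 6 astrocyte markers 3 had a positive and 3 a negative change, with a median of -0.33. The summed astrocyte marker level was 2083 to 2189 TPM in control lines in differentiation medium and 966 to 1127 TPM in control lines in proliferation medium. No astrocyte marker was under 1 TPM in all libraries of either group. The part of a shift in cell types in the Tle2 and Tle6 values was not tested.

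The same libraries also differed in cell cycle genes. In control lines 5 of 8 listed cell cycle genes fell with differentiation, among them Mki67, a marker of dividing cells (log2 change -3.24, SE 0.412, limma adjusted p = 0.00532), Ccnb1, the cyclin of mitotic entry (-2.95, adjusted p = 0.00969), and Top2a, the DNA topoisomerase of dividing cells (-2.75, adjusted p = 0.00532). The summed level of the 8 genes was 255 to 257 TPM in control lines in differentiation medium and 771 to 1209 TPM in control lines in proliferation medium. Of the 5, Cdc20 and Ccna2 did not pass with no filter on low values (adjusted p of 0.0544 and 0.0792). The 3 named calls ended when Control NSC#1 was left out of the proliferation group (adjusted p of 0.0932, 0.147 and 0.0932 for Mki67, Ccnb1 and Top2a), or either control line out of the differentiation group (0.0538 to 0.0981). The part of cell division in the Tle2 and Tle6 values was not tested.

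In Atrx-deleted lines Tle2 and Tle6 were also lower in differentiation medium, which is the pattern the family was chosen for, and more of their RNA was left than in control lines. Tle6 had 39.9, 41.1 and 30.3 TPM in Atrx-deleted lines in differentiation medium, against 123, 118 and 114 TPM in Atrx-deleted lines in proliferation medium, for mA16d#4, mA19d#4 and mA19d#7 in that order. The level in differentiation medium was 32.3%, 34.8% and 26.7% of that in proliferation medium in these lines, against 10.1% and 11.0% in Control NSC#1 and Control NSC#2. Tle2 had 22.4, 29.7 and 34.2 TPM in Atrx-deleted lines in differentiation medium, against 77.9, 78.4 and 68.2 TPM in Atrx-deleted lines in proliferation medium. The Tle2 level left was 28.8%, 37.9% and 50.1% in the Atrx-deleted lines, against 12.02% and 14.7% in the control lines. The log2 change with differentiation in Atrx-deleted lines was -1.66 for Tle6 and -1.37 for Tle2, and without the mA19d#7 library in differentiation medium it was -1.52 for Tle6 and -1.50 for Tle2. In that comparison 13 of all genes, or 0.083%, passed the threshold, and 6 did so with the line as a block, which is given as background and says nothing of genes chosen on it.

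**Figure D1:**
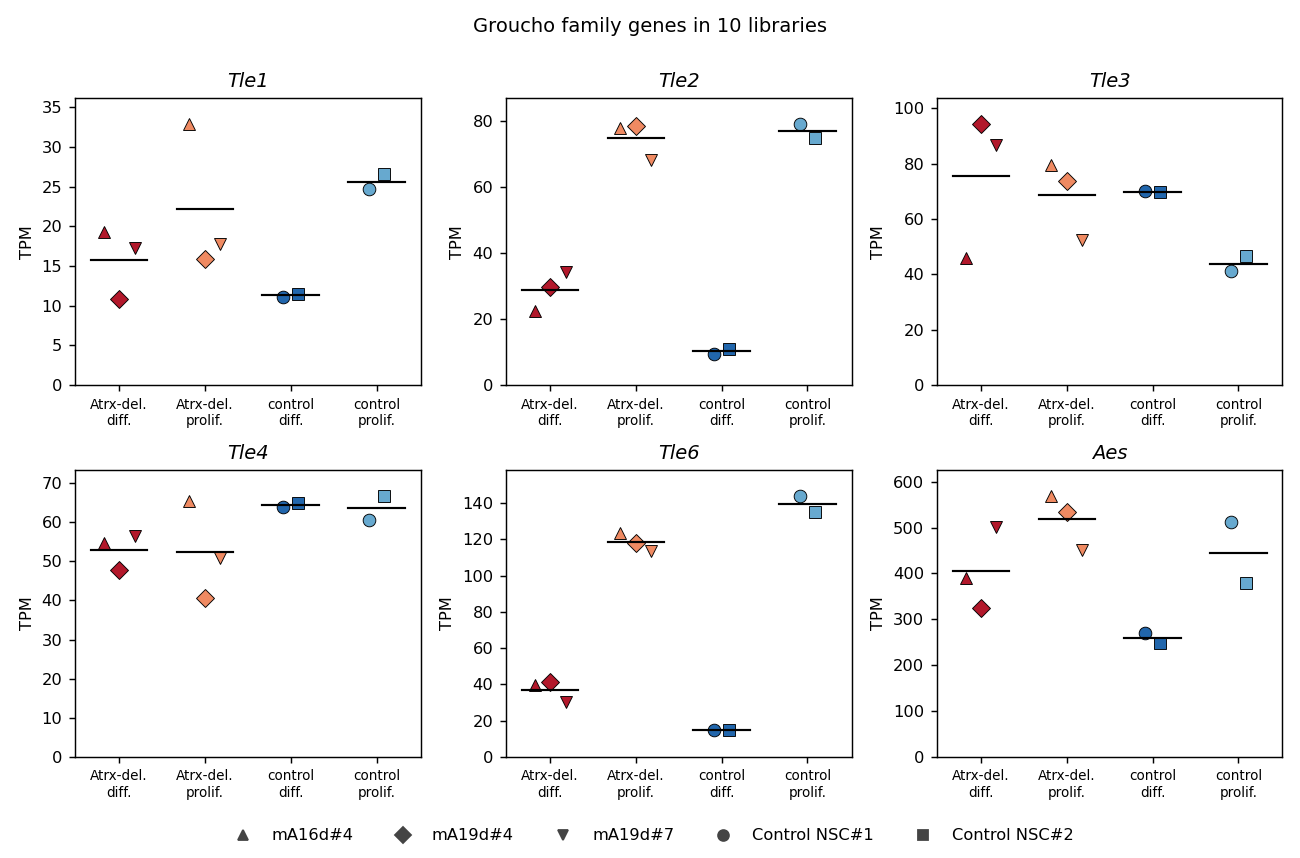
Level in TPM (linear axis from 0) of each of the 6 Groucho family genes in the 10 libraries, with Atrx-deleted groups left of control groups, a symbol for each line and a bar at each group mean. Tle2 and Tle6 are low in both differentiation groups and lowest in control lines in differentiation medium, at 9.49 to 14.9 TPM, while Tle4 stays between 40.7 and 66.7 TPM in all libraries.

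Set by medium, Tle2 of the Atrx-deleted lines overlapped the control lines in proliferation medium and Tle6 was slightly below them, while both were above the control lines in differentiation medium. In proliferation medium Tle2 averaged 74.9 ± 5.75 TPM in Atrx-deleted lines (SD, n = 3) and 76.9 ± 2.87 TPM in control lines (SD, n = 2), with overlapping values. Tle6 averaged 118 ± 4.97 TPM in Atrx-deleted lines and 140 ± 6.22 TPM in control lines in that medium, and all Atrx-deleted values were below both control values. In differentiation medium Tle2 averaged 28.8 ± 5.94 TPM in Atrx-deleted lines and 10.3 ± 1.08 TPM in control lines. Tle6 averaged 37.1 ± 5.92 TPM in Atrx-deleted lines and 14.7 ± 0.224 TPM in control lines, and for both genes the groups did not overlap. The log2 difference between Atrx-deleted and control lines in differentiation medium was 1.39 for Tle2 and 1.27 for Tle6, and -0.04 and -0.24 in proliferation medium. The difference of the medium responses was 1.43 for Tle2 and 1.50 for Tle6 on the log2 scale. Without the mA19d#7 library in differentiation medium the log2 difference there was 1.26 for Tle2 and 1.40 for Tle6, and the difference of the responses was 1.30 for Tle2 and 1.64 for Tle6. These comparisons use the Atrx-deleted libraries on which the genes were chosen and were not tested for Tle2 and Tle6. They also share libraries with each other and with the medium responses above.

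Cell cycle genes also differed between these libraries, and the shares left in each line are given below. In differentiation medium 6 of 8 cell cycle genes were higher in Atrx-deleted than in control lines by the limma test, with a median log2 difference of 1.88 against 0.02 over all genes, and 2.89% of all genes passed in either direction. The largest of these were Cdc20, the activator of mitotic exit (2.33, limma adjusted p = 0.0226), Ccnb1 (2.22, adjusted p = 0.0244) and Top2a (2.20, adjusted p = 0.0104). All 6 calls ended with those 2 groups fitted alone (adjusted p of 0.107 to 0.185), and all but that of Top2a ended with no filter on low values (0.0586 to 0.111). The 3 named calls also ended without either control library in differentiation medium (0.0939 to 0.245), and that of Ccnb1 without mA19d#4 in differentiation medium (0.0510). Without mA19d#7 in differentiation medium 6 of 8 passed, with Mcm2 in place of Ccna2, and the median was 1.87. The summed cell cycle level left in differentiation medium was 40.4%, 106% and 83.7% of that in proliferation medium in mA16d#4, mA19d#4 and mA19d#7, against 21.2% and 33.1% in Control NSC#1 and Control NSC#2. Line mA19d#4 had as much cell cycle RNA in differentiation medium as in proliferation medium, with Mki67 at 96.5%, and its Tle6 and Tle2 were at 34.8% and 37.9%. Line mA16d#4 had the lowest share of cell cycle RNA left among the Atrx-deleted lines and also the lowest share of Tle2. The share of Tle6 was lowest in mA19d#7. These shares rest on 1 library per line and medium. What part cell division has in these Tle2 and Tle6 values was not tested.

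**Figure D2:**
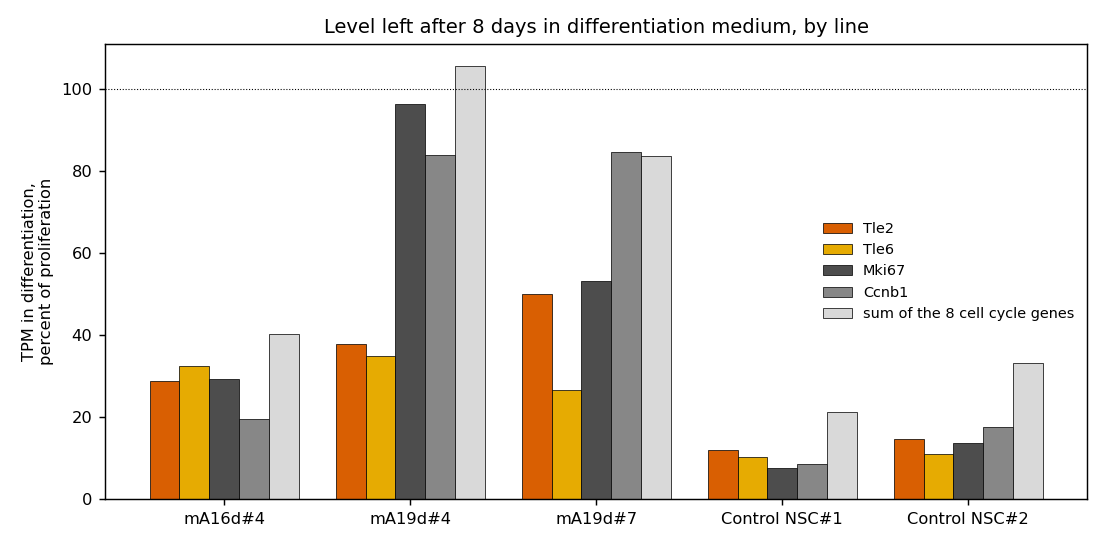
Level in differentiation medium as a percent of the level in proliferation medium of the same line (bars from 0, 1 library per line and medium, no error), for Tle2, Tle6, Mki67, Ccnb1 and the sum of 8 cell cycle genes, with the 3 Atrx-deleted lines left of the 2 control lines and a dotted line at 100%. Control lines kept 10.1% to 14.7% of Tle2 and Tle6, and Atrx-deleted lines 26.7% to 50.1%, while the cell cycle sum in mA19d#4 was at 106%.

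Across the 10 libraries Tle2 and Tle6 had the most alike patterns, each being the other's closest match. Likeness was measured as the root mean square difference between centred log2(TPM + 1) profiles, so that a smaller value is closer. The value for Tle2 and Tle6 was 0.288, against a median of 1.17 between Tle2 and all other 15659 genes and 1.28 for Tle6. Both were chosen for a joint fall in 6 of these libraries, so this is a description. After Tle6, the genes nearest to Tle2 were Dgkk, a diacylglycerol kinase (0.307), and Bub1b, a mitotic checkpoint gene (0.374). After Tle2, the genes nearest to Tle6 were Dgkk (0.428) and Sox7, a Sox-family transcription factor (0.442). Dgkk averaged 7.35 TPM in Atrx-deleted lines in differentiation medium, 20.0 TPM in Atrx-deleted lines in proliferation medium, 2.22 TPM in control lines in differentiation medium and 16.4 TPM in control lines in proliferation medium. The other family genes were far down these orders, with Aes at rank 691 and Tle1 at rank 741 for Tle2, and Tle4 and Tle3 at ranks 7888 and 10510. For Tle6, Tle1 was at rank 671 and Aes at rank 911, and Tle4 and Tle3 at ranks 7868 and 11718. Tle6 was more abundant than Tle2 in every library but 1. The ratio of Tle6 to Tle2 averaged 1.35 ± 0.448 in Atrx-deleted lines in differentiation medium, 1.58 ± 0.0796 in Atrx-deleted lines in proliferation medium (SD, n = 3 each), 1.44 ± 0.131 in control lines in differentiation medium and 1.81 ± 0.0133 in control lines in proliferation medium (SD, n = 2 each). The exception was mA19d#7 in differentiation medium, with a ratio of 0.887.

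The genes around the Tle2 and Tle6 locus were followed in the same way. The table holds 15 genes that start within 200 kb of the Aes-Tle2-Tle6 span, and 12 of them were expressed enough to test. In control lines 0 of 12 changed with differentiation by limma at the adjusted threshold, and 1 had an unadjusted p below 0.05. Over all genes these shares were 4.51% and 19.9%, so that with 12 genes a count of 0 is near the background. Of the 12 genes 10 had a negative and 2 a positive log2 change, with a median of -0.22. The values ranged from -1.80 for Smim24 (SE 0.766, limma adjusted p = 0.222), a gene that stayed under 1 TPM in control lines in differentiation medium, to 0.51 for Zfp433 (SE 0.640). The nearest tested genes on either side were Gna11, a G-protein alpha subunit that starts 29.4 kb before Tle2 (-0.04, SE 0.192), and BC025920, which starts 31.7 kb after it (-0.62, SE 0.350, limma adjusted p = 0.373). In the other 4 comparisons 0 of 12 passed as well, with 1 of 12 below an unadjusted p of 0.05 in each of them except the difference of the medium responses, where there was 0, against 7.02% to 20.2% of all genes.

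**Figure D3:**
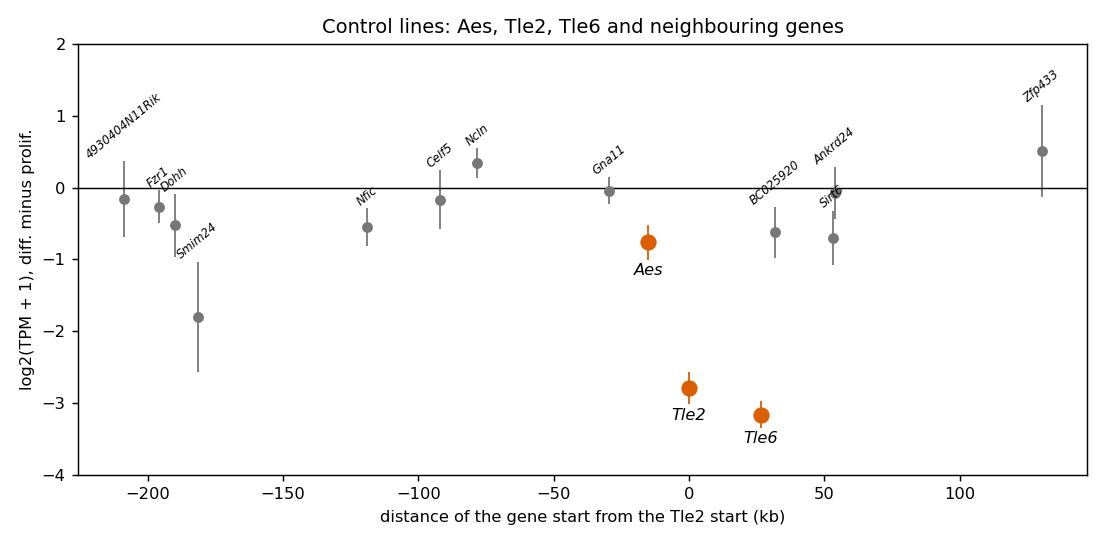
Change with differentiation in control lines, log2(TPM + 1) in differentiation minus proliferation medium with its SE from limma (n = 2 lines in each medium), against distance of the gene start from the Tle2 start in kb, for Aes, Tle2 and Tle6 (orange) and the 12 tested neighbours (grey). Tle6 and Tle2 lie at -3.16 and -2.79, and the neighbours between -1.80 and 0.51.

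The full-length members Tle1, Tle3 and Tle4 did not pass the test in any comparison in which they were tested, with all groups fitted together. Tle1 had 19.3, 10.8 and 17.3 TPM in Atrx-deleted lines in differentiation medium, against 32.9, 15.9 and 17.8 TPM in Atrx-deleted lines in proliferation medium. In control lines it had 11.1 and 11.5 TPM in differentiation medium, against 24.7 and 26.6 TPM in proliferation medium. The control groups were apart and the Atrx-deleted groups overlapped. The log2 change in control lines was -1.11 (SE 0.368, limma adjusted p = 0.118, unadjusted p = 0.0124), lower in 2 of 2 lines, and it passed when the control groups were fitted alone (adjusted p = 0.0288). The Atrx-deleted lines kept 58.9%, 68.0% and 97.4% of their Tle1 level, against 44.8% and 43.5% in the control lines, and the difference of the responses was 0.68 (SE 0.475, limma adjusted p = 0.825).

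Tle3, best known from fat cells as a partner of nuclear receptors, was the single member with a positive log2 change in both control lines. It had 69.9 and 69.8 TPM in control lines in differentiation medium, against 41.1 and 46.6 TPM in control lines in proliferation medium, a log2 change of 0.66 (SE 0.320, limma adjusted p = 0.289, and 0.0315 with the control groups fitted alone). In Atrx-deleted lines it had 45.8, 94.2 and 86.5 TPM in differentiation medium, against 79.5, 73.5 and 52.5 TPM in proliferation medium. The lines moved apart: mA16d#4 was lower in differentiation medium by 0.80 on the log2 TPM scale, and mA19d#4 and mA19d#7 were higher by 0.36 and 0.72. The mean in Atrx-deleted lines in differentiation medium, 75.5 ± 26.0 TPM (SD, n = 3), was close to the 69.9 ± 0.103 TPM of control lines (SD, n = 2), but the single lines were not. The log2 difference was 0.04 (SE 0.292, limma adjusted p = 0.955) and turned to -0.09 without mA19d#7. In proliferation medium all Atrx-deleted values lay above both control values, with a log2 difference of 0.61 (SE 0.292, limma adjusted p = 0.389).

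Tle4, a marker of deep-layer projection neurons in the cortex, had the smallest fold range of the family, its highest library being 1.64 times its lowest. It had 54.7, 47.8 and 56.5 TPM in Atrx-deleted lines in differentiation medium and 65.3, 40.7 and 50.9 TPM in Atrx-deleted lines in proliferation medium. In control lines it had 63.8 and 64.9 TPM in differentiation medium and 60.5 and 66.7 TPM in proliferation medium. The log2 change with differentiation was 0.02 in control lines (SE 0.218, limma adjusted p = 0.984). Between Atrx-deleted and control lines it was -0.28 in differentiation medium (SE 0.199, limma adjusted p = 0.464) and -0.30 in proliferation medium (SE 0.199, limma adjusted p = 0.550). In differentiation medium all 3 Atrx-deleted values were below both control values, which with 3 and 2 values is a description and not a test.

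Aes, the short member, was the most abundant family gene in every library. It had 391, 324 and 501 TPM in Atrx-deleted lines in differentiation medium, against 569, 534 and 451 TPM in Atrx-deleted lines in proliferation medium. In control lines it had 270 and 248 TPM in differentiation medium, against 512 and 378 TPM in proliferation medium. The log2 change in control lines was -0.76 (SE 0.242, limma adjusted p = 0.104), lower in 2 of 2 lines. In Atrx-deleted lines Aes was lower in mA16d#4 and mA19d#4, at 68.7% and 60.7% of the proliferation level, and at 111% in mA19d#7. In differentiation medium all Atrx-deleted values lay above both control values, and the log2 difference of 0.62 (SE 0.220) had an unadjusted p of 0.0176 and a limma adjusted p of 0.152. Without mA19d#7 in differentiation medium that difference was 0.46 (limma adjusted p = 0.188). The medium response of control lines had a limma adjusted p of 0.0419 when the same Atrx-deleted library was left out of the shared estimate of spread.

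Between Atrx-deleted and control lines the 4 members given a test thus had no call. By limma 0 of 4 passed in proliferation medium, where 0.46% of all genes passed and 13.7% had an unadjusted p below 0.05, and 0 of the 4 had an unadjusted p below 0.05. In differentiation medium, where 2.89% of all genes passed and 20.2% had an unadjusted p below 0.05, 0 of 4 passed and 1, Aes, had an unadjusted p below 0.05. In the test of the difference of the medium responses 0 of 4 passed and 0 had an unadjusted p below 0.05, against 0.00639% of all genes passing, a single gene, and 0 genes with the line as a block. With 2 and 3 lines a group and SEs of 0.199 to 0.475, changes of that order and also larger ones can go uncalled. The Aes difference of 0.62 in differentiation medium, for example, did not pass (limma adjusted p = 0.152). Groups of 3 and 2 values, as for Tle3, Tle4 and Aes above, can also lie apart without a difference between genotypes. The share of all genes whose groups lie apart was not counted.

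**Figure D4:**
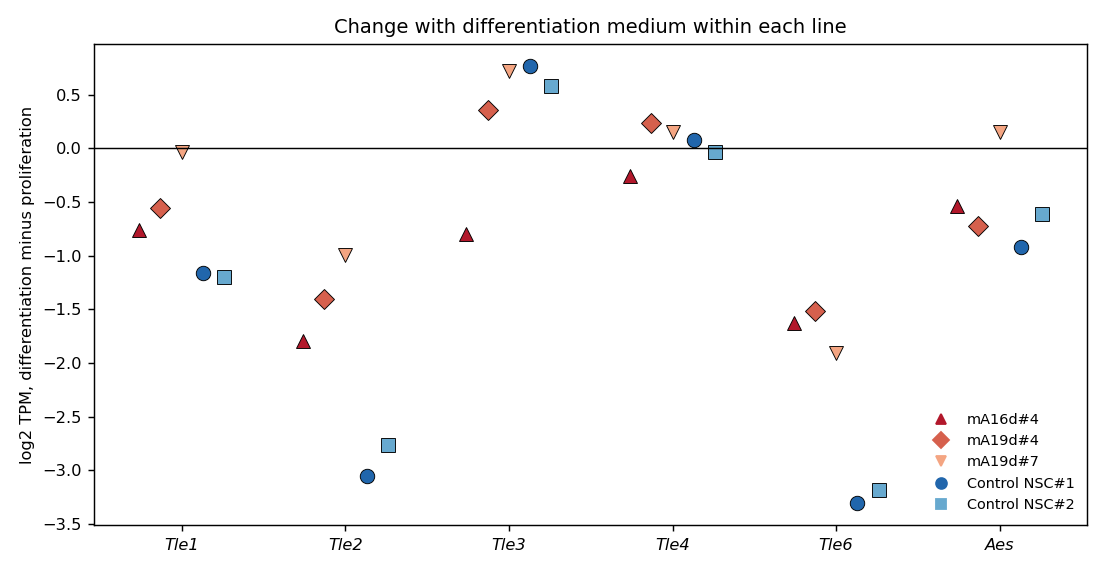
Change with differentiation medium within each line, as log2 TPM in differentiation minus proliferation medium, for the 6 family genes, with the 3 Atrx-deleted lines (red shades) left of the 2 control lines (blue shades); each point is a pair of libraries. Tle2 and Tle6 are below 0 in all 5 lines, from -3.31 to -0.997, and Tle3 is below 0 in mA16d#4 and above 0 in the other lines.

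Together the family had its lowest summed level in control lines in differentiation medium. The sum over the 6 genes was 616 ± 96.4 TPM in Atrx-deleted lines in differentiation medium and 854 ± 97.0 TPM in Atrx-deleted lines in proliferation medium (SD, n = 3 each). It was 429 ± 13.6 TPM in control lines in differentiation medium and 795 ± 94.1 TPM in control lines in proliferation medium (SD, n = 2 each). The sum in differentiation medium was 60.5%, 63.7% and 96.2% of that in proliferation medium in mA16d#4, mA19d#4 and mA19d#7, against 51.0% and 57.7% in the control lines. Without mA19d#7 the mean in Atrx-deleted lines in differentiation medium was 560.4 TPM. Aes made up most of the family sum, from 51.9% to 69.0% in single libraries. The make-up among the rest shifted. Tle6 made up 6.22% of the family in Atrx-deleted lines in differentiation medium and 13.9% in proliferation medium, and 3.43% in control lines in differentiation medium and 17.6% in proliferation medium. Tle3 made up 12.4% and 7.96% in Atrx-deleted lines in differentiation and proliferation medium, and 16.3% and 5.58% in control lines. Among the full-length members Tle1 to Tle4, Tle2 held 16.5% ± 0.937 of the summed level in Atrx-deleted lines in differentiation medium, 34.7% ± 3.74 in Atrx-deleted lines in proliferation medium (SD, n = 3 each), 6.58% ± 0.606 in control lines in differentiation medium and 36.7% ± 2.54 in control lines in proliferation medium (SD, n = 2 each). Without mA19d#7 in differentiation medium the Atrx-deleted means there were 7.24% for the Tle6 share of the family, 12.6% for that of Tle3 and 16.0% for the Tle2 share of the full-length members.

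The order of levels in control lines in proliferation medium was Aes, Tle6, Tle2, Tle4, Tle3 and Tle1. In control lines in differentiation medium it was Aes, Tle3, Tle4, Tle6, Tle1 and Tle2, so Tle6 and Tle2 moved below Tle3 and Tle4. In Atrx-deleted lines in differentiation medium the order by mean was Aes, Tle3, Tle4, Tle6, Tle2 and Tle1, and in Atrx-deleted lines in proliferation medium it was Aes, Tle6, Tle2, Tle3, Tle4 and Tle1. Tle3 and Tle4 overlapped in both Atrx-deleted groups, as did Tle6 and Tle2 in differentiation medium. Tle2 and Tle3 also overlapped in Atrx-deleted lines in proliferation medium. Among all 21101 genes ranked by level, Tle6 stood at 5767 to 7075 in Atrx-deleted lines in differentiation medium, 1696 to 1905 in Atrx-deleted lines in proliferation medium, 9619 to 9679 in control lines in differentiation medium and 1365 to 1495 in control lines in proliferation medium. The ratio of Aes to the summed full-length members was 2.37 ± 0.519 in Atrx-deleted lines and 1.66 ± 0.125 in control lines in differentiation medium, and 2.39 ± 0.167 in Atrx-deleted lines and 2.13 ± 0.519 in control lines in proliferation medium (SD, n = 3 and 2 lines). In differentiation medium the Atrx-deleted value was at least 1.78 and the highest control value was 1.75, and the Atrx-deleted mean was 2.26 without mA19d#7.

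**Figure D5:**
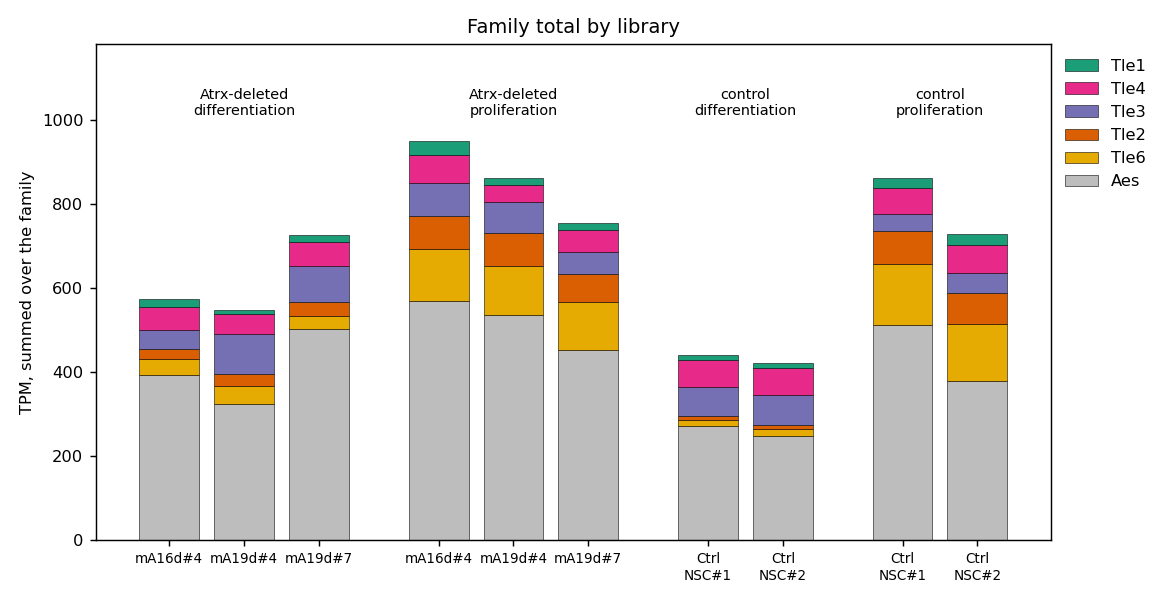
Summed TPM of the 6 family genes in each of the 10 libraries, stacked by gene (bars from 0), with Atrx-deleted libraries left of control libraries. Aes is the bottom and largest segment throughout, and the control libraries in differentiation medium have the lowest totals, 419.8 and 439 TPM.

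Few of the factors that recruit Groucho proteins passed the test. Over all genes 0.00639% to 4.51% passed in the 5 comparisons, and 7.02% to 20.2% had an unadjusted p below 0.05. A count of 0 called in lists this short is therefore near the background. Of the Hes and Hey repressors, 6 of 9 were expressed enough to test, and by limma 0 of 6 passed in any of the 5 comparisons, with 0 to 3 of them below an unadjusted p of 0.05. Their median log2 change with differentiation was -0.35 in Atrx-deleted lines, against 0.00 in the control lines. Hes1, a Notch target that keeps progenitors undifferentiated, had 23.7, 35.7 and 26.9 TPM in Atrx-deleted lines in differentiation medium, against 47.9, 75.3 and 67.5 TPM in Atrx-deleted lines in proliferation medium. It had 46.0 and 53.3 TPM in control lines in differentiation medium, against 77.9 and 48.7 TPM in control lines in proliferation medium. All Atrx-deleted lines were lower in differentiation medium (log2 change -1.11, limma adjusted p = 0.0997), and of the control lines 1 was lower and 1 higher (-0.31, adjusted p = 0.625). Hes5, another Notch target of progenitors, had 282, 192 and 54.5 TPM in Atrx-deleted lines in differentiation medium, against 992, 555 and 399 TPM in Atrx-deleted lines in proliferation medium. In control lines it had 114 and 137 TPM in differentiation medium, against 198 and 339 TPM in proliferation medium. The medium groups did not overlap in either genotype, and the log2 changes of -2.06 in Atrx-deleted lines (limma adjusted p = 0.145) and -1.05 in control lines (adjusted p = 0.430) did not pass. Without the mA19d#7 library in differentiation medium, which had the lowest Hes5 value, the change in Atrx-deleted lines was -1.37 for Hes5 (limma adjusted p = 0.0863) and -1.08 for Hes1 (0.0742).

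Among the TCF and LEF factors 0 of 4 passed in any comparison by limma, with 0 to 1 below an unadjusted p of 0.05 and a median log2 change of -0.16 in control lines. Of the Runx list, 1 of 3 tested genes fell in control lines. It was Cbfb, the shared partner of Runx proteins (log2 change -0.85, SE 0.168, limma adjusted p = 0.0230). The Cbfb call ended without any 1 of the 4 control libraries, with the line as a block (limma adjusted p = 0.0654) and without the trend (0.0541). Of the homeobox, forkhead and other recruiting factors 13 of 18 in the table were tested. Between genotypes 5 of 13 had an unadjusted p below 0.05 in each medium, against 13.7% of all genes in proliferation and 20.2% in differentiation medium. The log2 difference was positive for 10 and negative for 3 in proliferation medium (median 1.07), and positive for 9 and negative for 4 in differentiation medium (median 0.44). In the other 3 comparisons 1 to 3 of 13 were below that unadjusted p. Six2, a homeobox factor of kidney and craniofacial progenitors, was higher in Atrx-deleted than in control lines, and it was the 1 of 13 that passed in each medium. The log2 difference was 2.68 in differentiation medium (SE 0.396, limma adjusted p = 0.0107) and 2.40 in proliferation medium (SE 0.396, limma adjusted p = 0.0390). Its control levels were near or under the 1 TPM added before the log, at 1.03 to 1.19 TPM in differentiation medium and 0.0194 to 0.491 TPM in proliferation medium. Atrx-deleted lines had 7.96 to 16.8 TPM and 4.28 to 6.98 TPM in these media. The Six2 call in differentiation medium ended without either control library of that medium (adjusted p = 0.120 without Control NSC#1 and 0.0916 without Control NSC#2) and with the 2 groups fitted alone (0.129). The call in proliferation medium ended without any 1 control library or any 1 Atrx-deleted library of that medium (0.0697 to 0.279), with the 2 groups fitted alone (0.0669) and with no filter (0.0760).

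The enzymes that act with or on Groucho proteins showed few calls, and over all genes 4.51% or fewer passed in each comparison. Unadjusted p-values below 0.05 were found for 7.02% to 20.2% of all genes. Counts of 0 called in these lists are near that background. Of 10 histone deacetylases and other corepressors 0 passed in any of the 5 comparisons by limma, with 0 to 3 below an unadjusted p of 0.05. Hdac1, a deacetylase that Groucho proteins bind, had 58.4 and 64.5 TPM in control lines in differentiation medium, against 109 and 96.7 TPM in control lines in proliferation medium (log2 change -0.73, limma adjusted p = 0.335). In Atrx-deleted lines Hdac1 had 72.0, 41.8 and 73.7 TPM in differentiation medium and 114, 52.4 and 50.5 TPM in proliferation medium, which overlap. Hdac2, its close paralogue, stayed between 79.0 and 143 TPM in all libraries. Of 13 kinases, ligases and other modifiers of Groucho proteins 1 fell in control lines. It was Cdk1, the mitotic kinase (log2 change -2.71, limma adjusted p = 0.0133), which was also higher in Atrx-deleted than in control lines in differentiation medium (2.16, limma adjusted p = 0.0288). Cdk1 is itself a cell cycle gene. Its fall ended without any 1 of the 4 control libraries (adjusted p of 0.0538 to 0.180), and the difference in differentiation medium ended without any 1 of 6 libraries, all 4 control ones, mA19d#4 in proliferation medium or mA19d#4 in differentiation medium (0.0519 to 0.279), with the 2 groups fitted alone (0.185) and with no filter (0.0816).

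Genes that Groucho complexes are known to repress were followed as lists. Across the 5 comparisons 0.00639% to 4.51% of all genes passed, so a count of 0 called in such a list is near the background. Of the proneural and Notch ligand genes under Hes repression 0 of 5 tested passed in any comparison by limma, with 0 to 1 below an unadjusted p of 0.05. Of 10 tested Wnt targets 4 had an unadjusted p below 0.05 in control lines, against 19.9% of all genes, with 4 positive and 6 negative changes (median -0.15). Between genotypes in differentiation medium it was also 4 of 10, against 20.2% of all genes, with 4 positive and 6 negative differences (median -0.21). By adjusted p 1 of the 10 passed in control lines, Nkd2, a feedback inhibitor of Wnt signalling, which rose (log2 change 2.53, limma adjusted p = 0.00969). Notum, another feedback inhibitor, was higher in Atrx-deleted than in control lines in differentiation medium (2.33, limma adjusted p = 0.0346), the 1 of 10 that passed there. Its level in that medium was low, at 0.0355 to 0.984 TPM in control lines and 3.34 to 8.46 TPM in Atrx-deleted lines. The Nkd2 call ended without Control NSC#1 in proliferation medium or without either control library in differentiation medium (adjusted p of 0.0801 to 0.147). That of Notum ended without any 1 of 7 libraries, all 4 control ones, mA19d#4 or mA19d#7 in proliferation medium, or mA16d#4 in differentiation medium (0.0527 to 0.301), with the 2 groups fitted alone (0.175) and with no filter (0.0744). Partners of Tle6 in the oocyte complex were nearly silent: Nlrp5, Ooep, Khdc3 and Padi6 were each under 1 TPM in all 10 libraries. Zbed3, the remaining partner in the table, was tested and did not pass in any comparison by limma.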

How the data were processed

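RNA was extracted with the RNeasy Mini Kit and made into libraries with the TruSeq RNA kit, per the labels' protocols. STAR and the mouse build mm10 are named in the submitters' processing notes; their versions, the annotation and the program that counted reads are not given in these sources. The deposited table holds log2 TPM for 21101 genes in 10 libraries. The sorted values are identical in every library, so the authors' values are quantile-normalised: each library sums to 997524 TPM, with 1213 genes at a floor of -8, and differences in total output are removed. Values were back-transformed to TPM, since the design had assumed TPM, and log2(TPM + 1) was tested with limma 3.58.1 in R 4.3.3 with a mean-variance trend and 4 group means (6 residual degrees of freedom), for the 15660 genes that reached 1 TPM in 2 or more libraries. The code was tested on simulated data. The members and lists were chosen with earlier results of these data known. Each list's called genes of largest change were named, at most 3 per direction, with Atrx, Hes1, Hes5, Hdac1 and Hdac2 always named. A further gene of that rule is not reported here. Libraries of the same line share that line. Deviations from the group means correlated within a line at 0.404 in mA19d#4, 0.159 in mA16d#4, -0.194 in mA19d#7 and 0.0624 in the control lines. A fit with the line as replicate block is an alternative. Other alternatives were a pseudocount of 0.1, no filter, median-of-ratios scaling, no trend, fitting the compared groups alone and leaving out each library.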

Additional observations from a re-analysis of the deposited data

How the results depend on the processing

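The falls of Tle2 and Tle6 in control lines passed under all 16 alternatives, with limma adjusted p-values of 0.000575 to 0.0223 for Tle2 and 2.32e-05 to 0.00963 for Tle6; with the replicate block they were 0.0125 for Tle2 and 0.00496 for Tle6. Fitted alone, the control groups gave 4 called family genes in place of 2, adding Tle1 (adjusted p = 0.0288) and Tle3 (0.0315), and 2080 called genes in place of 706. The number of genes called moved elsewhere as follows, and the cause was not tested. Between genotypes in proliferation medium 72 became 37 with no filter. Between genotypes in differentiation medium 452 became 2 with those groups fitted alone. For the medium response of Atrx-deleted lines 13 became 2 with no filter, 0 without the trend, 0 fitted alone and 6 with the replicate block. For the difference of the responses 1 became 0 with a pseudocount of 0.1, 30 with no filter, 2 without the trend and 0 with the replicate block. Leaving out each library in turn gave 6 to 1447 called genes and 2 to 3 family genes for control lines, 0 to 249 and 11 to 935 between genotypes in proliferation and differentiation medium, 0 to 348 for Atrx-deleted lines and 0 to 3 for the difference of the responses.

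Changes near 0 turned sign. In control lines Tle4 ran from -0.0507, without Control NSC#1 in proliferation medium, to 0.0891. Between genotypes Tle2 in proliferation medium ran from -0.0789 to 0.0232, the highest without mA19d#7, and Tle3 in differentiation medium ran from -0.147, without mA19d#4, to 0.365, with -0.0863 without mA19d#7. In Atrx-deleted lines Tle4 ran from -0.124, without mA19d#4 in proliferation medium, to 0.212, with -0.00617 without mA19d#7 in differentiation medium. Tle3 there ran from -0.0969, without mA19d#4 in differentiation medium, to 0.415, with -0.0843 and -0.0366 without mA19d#7 in proliferation and in differentiation medium. For the difference of the responses Tle4 was -0.00798 with median-of-ratios scaling and ran from -0.143, without mA19d#4 in proliferation medium, to 0.193 when a library was left out, with -0.0480 without Control NSC#2 in proliferation medium, and -0.00226 and -0.0253 without mA16d#4 and mA19d#7 in differentiation medium. The replicate block changed no call of a family gene, and of the other genes named it ended those of Nes, Cbfb and Slc1a3 in control lines. Read depth is unknown, so counting error behind low values could not be given.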
